A study of Mus musculus with 15 samples.

Results

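The markers of indirect pathway spiny neurons are genes that mark the projection neurons of the striatum whose axons run to the external globus pallidus. The set holds 8 genes, Drd2, Adora2a, Gpr6, Gpr52, Sp9, Upb1, Grik3 and Ptprm, chosen by name with no threshold on their levels, and 7 of them had a row among the 54232 gene identifiers of the count table. No identifier mapped to Gpr52, a receptor gene without introns that lies within the span of Rabgap1l, so Gpr52 was not analysed here. The 15 libraries each came from the striatum of a separate mouse aged 6 months: 7 with the genotype WT (wild type), 4 with the genotype E1 and 4 with the genotype KI-96. The labels name E1 and KI-96 without describing their alleles, and the study's title places them among knock-in mice of Huntington's disease and asks about toxicity of repeat-associated translation that starts without a start codon. All animals shared the same housing, and no treatment is named. The sources used here name neither strain nor sex.

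Spiny neurons of the striatum fall into a direct pathway class that carries the D1 dopamine receptor and projects to the output nuclei of the basal ganglia, and an indirect pathway class that carries the D2 dopamine receptor and the adenosine A2A receptor. In the indirect class the D2 receptor lowers cyclic AMP through inhibitory G proteins, and the A2A receptor raises it through the stimulatory G protein of the striatum, encoded by Gnal. Indirect pathway neurons make enkephalin from Penk and are known as the class affected early in Huntington's disease.

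The whole data set had 14678565 to 26388542 counts per library. Markers of cortical excitatory neurons, a list of 9 genes including Slc17a7, were high in 3 libraries. Their sum, in CPM (counts scaled by the normalized library size), was 1110 for WT replicate 3, 1234 for E1 replicate 2, 805 for E1 replicate 3 and 54.2 to 173 for the other 12 libraries. The library KI-96 replicate 3 also stood apart, at a position of 73.0 on the first principal component of log2 CPM (18.3% of the variance) against -34.7 to 23.1 for the other 14. KI-96 replicate 4 had the highest sum of 7 markers of thalamus, habenula and pallidum, 240.4 CPM, against 20.3 to 92.7 for the other 14. Htt, which encodes huntingtin, lay between 169 and 197 CPM in WT, between 135 and 148 in E1 and between 144 and 242 in KI-96. Genes shared by both classes of spiny neuron, a list of 12 that includes Ppp1r1b (DARPP-32), summed to 7871 to 12996 CPM, so striatal tissue was present in each library. Of 4 genes of midbrain dopamine neurons, which also carry Drd2, Th had 57 to 165 counts per library, Slc18a2 71 to 195, Slc6a3 0 to 12 and Pitx3 0 to 6. In bulk tissue, fewer cells of a type and less RNA per cell cannot be told apart.

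No genotype differed from another in any of the 7 measured markers past the threshold. Of the 7, 0 were called for E1 against WT, 0 for KI-96 against WT and 0 for KI-96 against E1 by the quasi-likelihood test of edgeR (adjusted p under 0.05 over 18278 genes). The background was equally sparse: that test called 0.00547% of all genes (1 gene) for E1 against WT and 0% for both comparisons with KI-96. At an unadjusted p under 0.05 the count of markers was 0 of 7 for E1 against WT, where 8.75% of all genes passed, 0 of 7 for KI-96 against WT, where 10.5% passed, and 1 of 7 (Ptprm) for KI-96 against E1, where 14.3% passed. DESeq2 also called 0 of the 7 in each comparison, with 0.276%, 0.273% and 1.14% of genes called in all in the same order, and limma-voom called 0 of 7, with 0.0109%, 0.00547% and 0%. The groups compared did not overlap for 0, 0 and 1 of the 7, beside 1.69%, 1.29% and 4.79% of all genes. All 7 had passed the filter on low counts. The 95% intervals of their log2 fold changes ran from -0.91 at the lowest (Gpr6, KI-96 against E1) to 0.69 at the highest (Gpr6, E1 against WT). These intervals are separate and not adjusted for their number, so they are not joint bounds on the changes. The E1 and KI-96 comparisons share the 7 WT libraries.

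**Figure D1:**
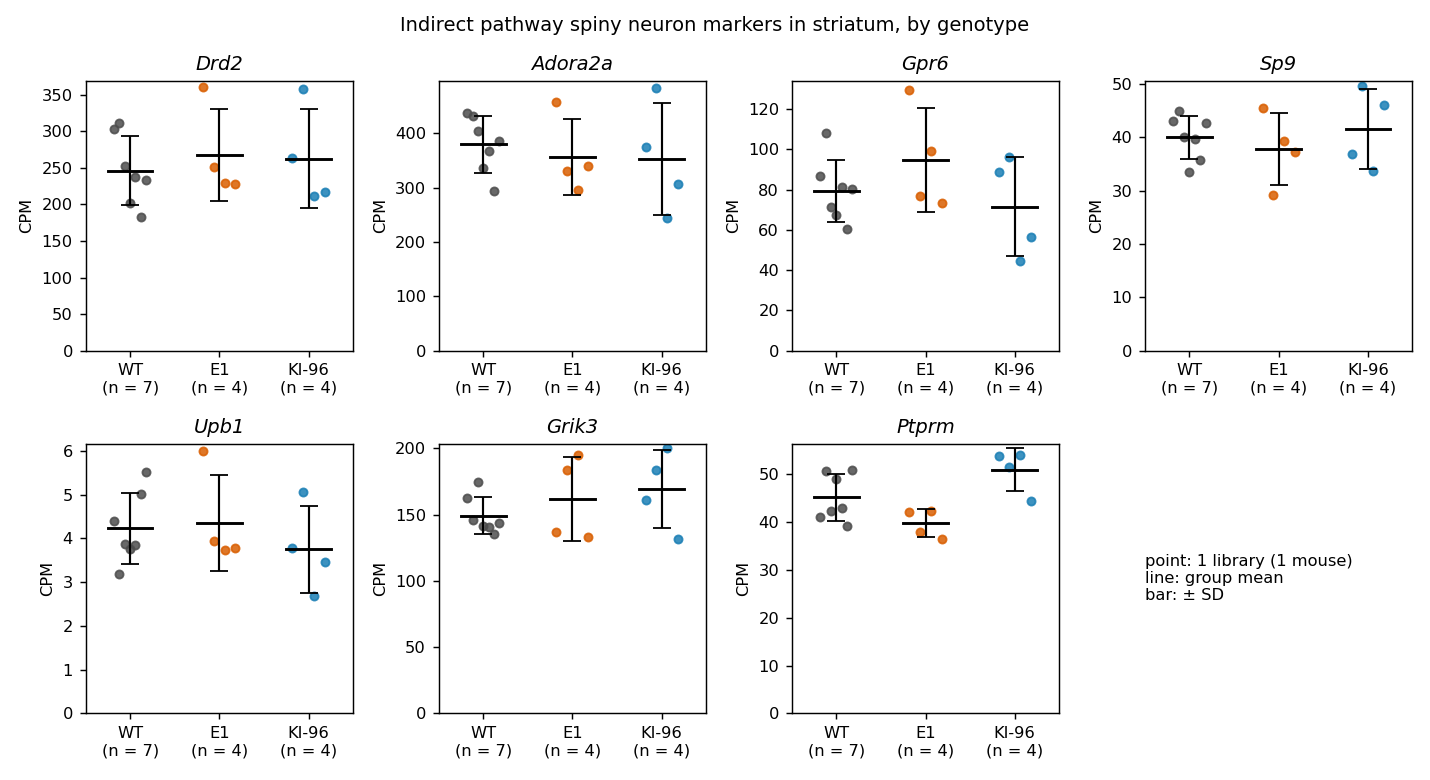
Level of each measured marker in CPM (y axis, from 0) by genotype (x axis), with 1 point per library, the group mean as a line and the SD as a bar. The groups overlap in every panel except that the 4 KI-96 libraries for Ptprm (44.3 to 53.9 CPM) lie above the 4 E1 libraries (36.5 to 42.2 CPM).

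Among the receptors that act on cyclic AMP, Drd2 encodes the D2 dopamine receptor (ENSMUSG00000032259, chr9:49340627-49408177, plus strand, build GRCm38). Its level in the 7 WT libraries ran from 183 to 311 CPM with a median of 238. The E1 libraries had 360, 251, 229 and 228 CPM in replicate order, and the KI-96 libraries had 263, 358, 212 and 216 CPM. E1 replicate 1 and KI-96 replicate 2 stood above every WT library, and the other 6 mutant libraries lay inside the WT range. Drd2 had a log2 fold change of 0.12 (SE 0.17, edgeR adjusted p = 0.853) for E1 against WT and 0.09 (SE 0.17, edgeR adjusted p = 0.882) for KI-96 against WT. Each positive sign rested on 1 library: without E1 replicate 1 the first was -0.06, and without KI-96 replicate 2 the second was -0.10.

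Adora2a encodes the adenosine A2A receptor (ENSMUSG00000020178, chr10:75316877-75334784, plus strand) and is the target of the antagonists used with dopamine replacement in Parkinson's disease. WT libraries ran from 294 to 438 CPM with a median of 386. Levels were 459, 330.4, 296 and 341 CPM in the E1 libraries and 375, 484, 243 and 307 CPM in the KI-96 libraries. The same 2 mutant libraries that were high for Drd2 exceeded all WT libraries, and KI-96 replicate 3 was the lowest of all 15. Adora2a had a log2 fold change of -0.09 (SE 0.17, edgeR adjusted p = 0.882) for E1 against WT and -0.11 (SE 0.17, edgeR adjusted p = 0.845) for KI-96 against WT. Without KI-96 replicate 3 the latter was 0.03. The former ran from -0.24 (E1 replicate 1 left out) to -0.01 (E1 replicate 3 left out), and it was 0.09 when the 3 libraries rich in cortical markers were left out.

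Gpr6 encodes an orphan receptor that signals through stimulatory G proteins without an added ligand (ENSMUSG00000046922, chr10:41069977-41072285, minus strand). It varied most of the 7, with 60.6 to 108 CPM in WT (median 80.2). In E1 the 4 libraries had 129.6, 76.8, 99.0 and 73.3 CPM, and in KI-96 they had 88.6, 96.03, 44.7 and 56.6 CPM. E1 replicate 1 was above and KI-96 replicates 3 and 4 were below the whole WT range, and E1 and KI-96 overlapped. Gpr6 had a log2 fold change of 0.25 (SE 0.21, edgeR adjusted p = 0.720) for E1 against WT, -0.15 (SE 0.21, edgeR adjusted p = 0.823) for KI-96 against WT and -0.41 (SE 0.24, edgeR adjusted p = 0.432) for KI-96 against E1. Without KI-96 replicate 3 the value was 0.02 for KI-96 against WT and -0.24 for KI-96 against E1. Without E1 replicate 1 it was 0.07 for E1 against WT and -0.22 for KI-96 against E1. KI-96 replicate 4, one of the 2 low libraries, was the one with the thalamic and pallidal sum of 240.4 CPM. The other, KI-96 replicate 3, had a sum of 92.7 CPM, and a link of these sums to Gpr6 was not tested.

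Sp9 encodes a zinc finger transcription factor needed for the formation of indirect pathway neurons (ENSMUSG00000068859, chr2:73271925-73284706, plus strand). WT libraries ran from 33.6 to 45.0 CPM with a median of 40.2. Replicates 1 to 4 of E1 had 45.6, 29.3, 39.4 and 37.2 CPM, and those of KI-96 had 36.9, 49.6, 33.7 and 46.0 CPM. Values lay on both sides of the WT median in both mutant groups. The log2 fold change was -0.08 (SE 0.13) for E1 against WT and 0.06 (SE 0.13) for KI-96 against WT, with edgeR adjusted p-values of 0.866 and 0.902. Sp9 shares 270 bp, 5.35% of its exon length, with Cir1 on the opposite strand, and the sources used here do not say whether counting used strand.

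Upb1 encodes beta-ureidopropionase, the last enzyme of pyrimidine degradation (ENSMUSG00000033427, chr10:75401115-75441679, plus strand), and was by far the least abundant, with 49 to 144 counts per library. WT libraries ran from 3.18 to 5.52 CPM with a median of 3.88. Its level was 6.00, 3.93, 3.72 and 3.78 CPM in the E1 mice and 3.78, 5.07, 2.67 and 3.46 CPM in the KI-96 mice. As for the receptors, E1 replicate 1 and KI-96 replicate 2 were the highest of their groups and KI-96 replicate 3 was the lowest. Upb1 had a log2 fold change of 0.04 (SE 0.20, edgeR adjusted p = 0.968) for E1 against WT and -0.18 (SE 0.21, edgeR adjusted p = 0.778) for KI-96 against WT. Without E1 replicate 1 the former was -0.15, and the latter ran from -0.36 without KI-96 replicate 2 to -0.05 without KI-96 replicate 3.

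Grik3 encodes the kainate receptor subunit GluK3, part of a glutamate-gated cation channel (ENSMUSG00000001985, chr4:125490700-125714173, plus strand). WT libraries ran from 136 to 174 CPM with a median of 144. Grik3 had 137, 183, 195 and 133 CPM in the E1 libraries and 161, 183, 199.9 and 132 CPM in the KI-96 libraries. The highest WT library (replicate 3) and the 2 highest E1 libraries (replicates 2 and 3) were the 3 with the cortical marker sums of 805 CPM or more, while KI-96 replicate 3, the highest of all for Grik3, had a cortical sum of 125 CPM. Grik3 had a log2 fold change of 0.12 (SE 0.13, edgeR adjusted p = 0.787) for E1 against WT and 0.18 (SE 0.13, edgeR adjusted p = 0.627) for KI-96 against WT. Without the 3 libraries rich in cortical markers it was -0.11 for E1 against WT and 0.21 for KI-96 against WT. Without E1 replicate 3 alone the first was 0.02, and without KI-96 replicate 3 the second was 0.09.

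Ptprm encodes a receptor tyrosine phosphatase that binds copies of itself on neighbouring cells (ENSMUSG00000033278, chr17:66666947-67354457, minus strand). WT libraries ran from 39.1 to 50.8 CPM with a median of 42.8. The E1 libraries had 42.1, 38.0, 42.2 and 36.5 CPM, and the KI-96 libraries had 53.7, 51.5, 53.9 and 44.3 CPM. All 4 KI-96 libraries lay above all 4 E1 libraries, as 2.29% of all genes tested did, and both groups overlapped WT. Ptprm was at 50.9 ± 4.51 CPM (SD, n = 4) in KI-96 and 39.7 ± 2.91 CPM (SD, n = 4) in E1. The log2 fold change of KI-96 against E1 was 0.36 (SE 0.11, 95% interval 0.13 to 0.58, edgeR unadjusted p = 0.0035), and with an edgeR adjusted p of 0.212 it did not pass the threshold. The adjusted p lay between 0.0644 (edgeR, without KI-96 replicate 4) and 0.539 (edgeR, with E1 and KI-96 alone in the fit) over the alternatives. Against WT the log2 fold changes were -0.18 (SE 0.09, edgeR adjusted p = 0.599) for E1 and 0.17 (SE 0.09, edgeR adjusted p = 0.525) for KI-96.

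Ptprm is made by several cell types, so marker sums of other cells are given beside it. All 3 tested markers of oligodendrocyte precursors had positive log2 fold changes for KI-96 against E1, and their sums ran from 79.1 to 118 CPM in E1 and from 122 to 141 CPM in KI-96, without overlap. Of these markers, Cspg4 and Pdgfra were each higher in all 4 KI-96 libraries than in any E1 library. All 5 markers of cholinergic interneurons were positive too, with sums of 80.7 to 117 CPM in E1 and 98.2 to 147 CPM in KI-96, which overlap. Endothelial markers, including Cldn5, summed to 119 to 173 CPM in E1 and 123 to 167 CPM in KI-96, with 4 of 6 positive. Markers of thalamus, habenula and pallidum were positive for 7 of 7, with sums of 23.1 to 48.6 CPM in E1 and 24.7 to 240.4 CPM in KI-96. Microglial markers were positive for 3 of 4 (190.3 to 230.5 CPM in E1, 215 to 277 CPM in KI-96) and astrocyte markers for 3 of 5 (2909 to 3636 CPM in E1, 2934 to 3845 CPM in KI-96), and 1 gene of each, Cx3cr1 and Aldh1l1, was higher in all 4 KI-96 libraries than in any E1 library. All 5 markers of mature oligodendrocytes were positive, with sums of 6196 to 14904 CPM in E1 and 8022 to 13008 CPM in KI-96. The lists for GABAergic interneurons, cortical excitatory neurons and choroid plexus leaned the other way, with 2 of 7, 2 of 9 and 1 of 5 markers positive. Npy, of the GABAergic list, was lower in all 4 KI-96 libraries than in any E1 library. Over all genes 49.4% were positive in this comparison, 2.29% were higher in KI-96 without overlap and 4.79% did not overlap in either direction. No gene of these lists was called, and the part of these cells in the Ptprm values was not tested. Without the 3 libraries rich in cortical markers the log2 fold change of Ptprm was 0.37. The other phosphatases of its class, Ptprk, Ptprt and Ptpru, had log2 fold changes of -0.39, 0.19 and -0.79 in the same comparison, and edgeR called none of them. Ptprm shares 457 bp (5.18% of its exon length) with a processed pseudogene on the same strand.

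**Figure D2:**
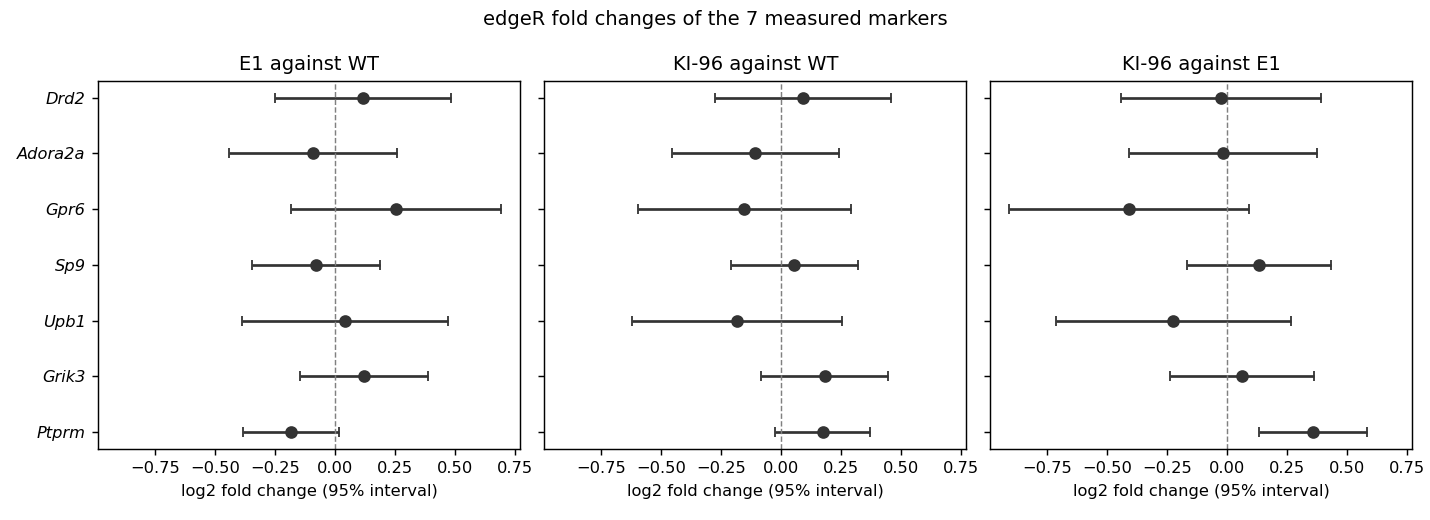
Log2 fold change of each measured marker (x axis) for E1 against WT, KI-96 against WT and KI-96 against E1, with 95% intervals from edgeR as bars and a dashed line at 0. The interval lies wholly on one side of 0 for Ptprm in KI-96 against E1 (0.13 to 0.58) and crosses 0 in all other cases.

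Per kilobase of annotated exon, Adora2a was the most abundant of the 7, at 120 ± 22.3 CPM per kb (SD, n = 15). Drd2 followed at 100.5 ± 21.1 CPM per kb, and Adora2a was above Drd2 in 14 of 15 libraries although their ranges overlapped. Gpr6 came next at 45.6 ± 12.0 CPM per kb and lay below Drd2 in all 15, with its highest library just above the lowest for Drd2. Grik3 had 17.6 ± 2.64 CPM per kb, below Gpr6 in all 15 libraries with no overlap of the ranges. Sp9 had 7.90 ± 1.10, Ptprm 5.12 ± 0.66 and Upb1 0.61 ± 0.13 CPM per kb. The ranges of Sp9 and Ptprm overlapped, and that of Upb1 lay below all others. The 3 G protein-coupled receptors thus stood at the top of the order, and the enzyme Upb1 at its foot.

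Spread among the 7 WT mice also differed between genes. The coefficient of variation was 19.5% for Gpr6, 19.3% for Drd2 and 19.1% for Upb1, above the upper quartile of 15.4% over the 11884 genes with a mean of at least 5 CPM. It was 13.7% for Adora2a, 10.8% for Ptprm and 10.3% for Sp9, and 9.34% for Grik3, inside the quartiles of 7.81% and 15.4%. The mean of Upb1, 4.13 CPM, is below that minimum.

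Several of the genes varied together from mouse to mouse within a genotype. After the mean of each group was subtracted, Drd2 and Adora2a had a Pearson r of 0.93 over the 15 libraries (Spearman rho 0.96), and r was 0.88 without the 2 libraries farthest from the median of Drd2. Gpr6 had r = 0.85 with Drd2 and 0.85 with Adora2a. Sp9 had r = 0.66 with Drd2, 0.69 with Adora2a and 0.68 with Gpr6, and those were 0.46, 0.52 and 0.53 without the 2 farthest libraries. These are descriptions over libraries that share their dissection, depth and scaling across genes, so they carry no test.

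The other members had lower values over all libraries. Grik3 had r = 0.10 with Drd2, -0.10 with Adora2a and -0.04 with Gpr6, but within the 7 WT libraries alone these were 0.55, 0.65 and 0.14. WT replicates 1 to 3 lay above WT replicates 4 to 7 for Drd2, Adora2a and Grik3 (145.5 to 174 against 136 to 143.5 CPM for Grik3). They also split on the second principal component (16.4% of the variance), at -10.85 to 15.72 against -32.99 to -19.82. The WT values of r with Drd2 and Adora2a include this split, whose source was not tested. Ptprm had r between -0.03 (Upb1) and 0.43 (Gpr6) with the others, and its value with Gpr6 was 0.64 without the 2 farthest libraries. Upb1 had r = 0.40 with Drd2 over all libraries and -0.08 without the 2 farthest, and within WT alone it was -0.46, so the positive value rests on those libraries. With Adora2a, Gpr6 and Sp9, Upb1 had r = 0.55, 0.45 and 0.46 over all libraries. Those values were 0.24, 0.15 and 0.33 without the 2 farthest, and -0.37, -0.49 and -0.10 within WT alone. Seen by mouse, E1 replicate 1 was above its group mean by 0.46 for Drd2, 0.38 for Adora2a, 0.49 for Gpr6 and 0.48 for Upb1 on the log2 CPM scale. KI-96 replicate 2 was above its mean by 0.48, 0.50, 0.49 and 0.46 for the same genes. KI-96 replicate 3 had -0.28 for Drd2, -0.49 for Adora2a, -0.61 for Gpr6 and -0.43 for Upb1, yet 0.26 for Grik3 and 0.09 for Ptprm. The 12 shared spiny neuron genes summed to 12996 CPM in E1 replicate 1, 12330 in KI-96 replicate 2 and 9535 in KI-96 replicate 3. In the same order, the 8 direct pathway markers summed to 1054, 845 and 640 CPM. E1 replicate 1 was the highest of all libraries for both sums. How much of the shared variation is particular to the indirect class was not tested.

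**Figure D3:**
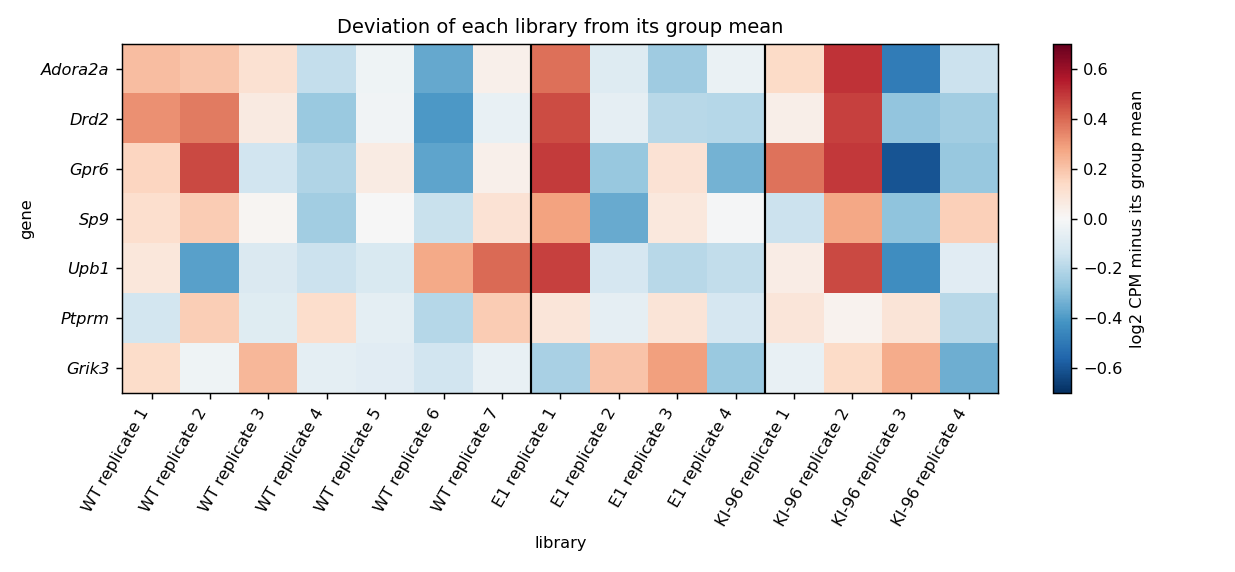
Log2 CPM of each measured marker (rows) in each library (columns, split by genotype with black lines) minus the mean of its group, red above and blue below. Drd2, Adora2a and Gpr6 share the colour of most columns, with E1 replicate 1 and KI-96 replicate 2 high and KI-96 replicate 3 low, whereas Grik3 is high in KI-96 replicate 3 (0.26).

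**Figure D4:**
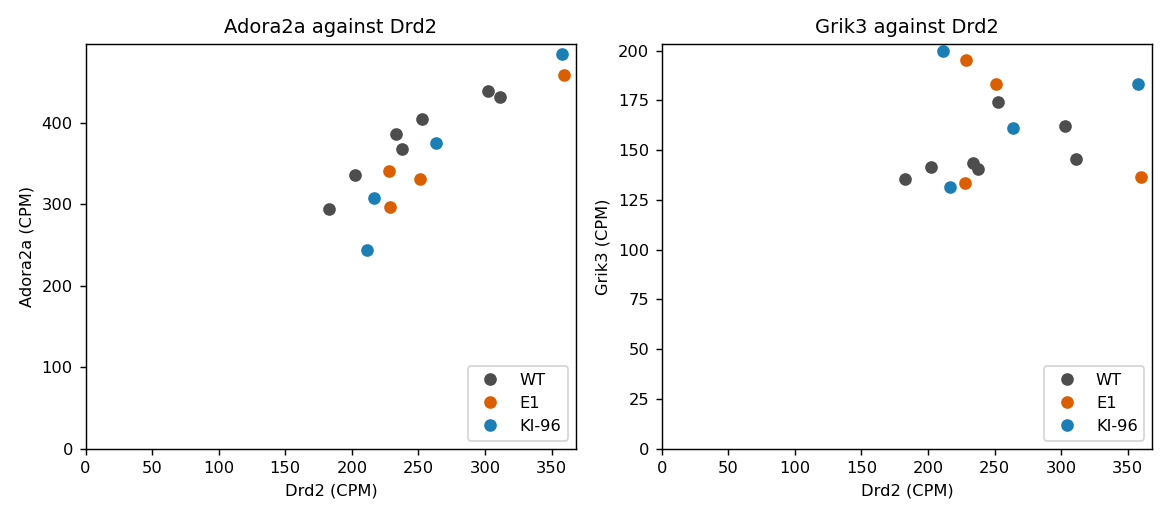
Level in CPM of Adora2a (left) and Grik3 (right) on the y axis against that of Drd2 on the x axis, 1 point per library, coloured by genotype. Adora2a follows Drd2 across the libraries (group-centred r = 0.93), and Grik3 does so less over all 15 (r = 0.10) than within the 7 WT libraries (r = 0.55). WT replicates 1 to 3 lie above WT replicates 4 to 7 for Drd2, Adora2a and Grik3.

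Among 11343 other genes with a mean of at least 5 CPM, those most like the mean of the 7 members over the 15 libraries, after subtraction of group means, included Ptpn5 (r = 0.94), Kcnj4 (0.93), Rgs20 (0.93) and Sh2d5 (0.91). Genes most like Drd2 included Kcnab1, Syndig1l, Asic4 and Pde1b (0.94 to 0.96). Adora2a was most like Rps6ka4 (0.93), with Asic4, Rgs20, Ppp1r1b and Rap1gap after it. Gpr6 was most like Arpp21 (0.97), which encodes a phosphoprotein regulated by cyclic AMP, then Mkrn1, Ccng2, Syndig1 and Gucy1b1 (0.91 to 0.94). Grik3 was most like Celsr2 (0.93), and Sstr4, Nrcam and Madd were also among its 5, none of them among the 5 of another member. Sp9 had Prelp (0.92), Sf1, Lipe, Lbp and Vim, and Ptprm had Rnf149 (0.82), Afg3l2, Plk2, Fkbp5 and Thsd4. Upb1 had lower values, from 0.76 (Bcar3) to 0.82 (Tefm), with Zfp775, Psph and Msl3l2 between, and without the 2 farthest libraries Tefm had 0.66.

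To show what 2 genes with a high correlation and 2 with lower ones have ahead of their starts, the 250 bases before the RefSeq start of Drd2 and Gpr6, and of Grik3 and Ptprm, are given 5′ to 3′ in build GRCm38.p6, from RefSeq. Of the 7 members, 6 matched a RefSeq promoter entry, and Adora2a had none. Capitals mark matches, on either strand, to the GC box or to the cyclic AMP response element TGACGTCA, which do not overlap each other here. The letters searched for the GC box were GGGCGG.
Drd2 (chr9:49340153-49340402, plus strand): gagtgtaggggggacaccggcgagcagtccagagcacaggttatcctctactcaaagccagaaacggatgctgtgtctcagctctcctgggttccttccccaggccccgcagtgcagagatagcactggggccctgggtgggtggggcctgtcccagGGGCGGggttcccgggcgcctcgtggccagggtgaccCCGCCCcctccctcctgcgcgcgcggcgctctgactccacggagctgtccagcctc
Gpr6 (chr10:41072291-41072540, minus strand): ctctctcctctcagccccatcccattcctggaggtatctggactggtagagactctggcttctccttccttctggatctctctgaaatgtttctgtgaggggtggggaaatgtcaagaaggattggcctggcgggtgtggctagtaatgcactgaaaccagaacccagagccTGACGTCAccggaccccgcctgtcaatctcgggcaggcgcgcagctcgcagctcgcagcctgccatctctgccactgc
Grik3 (chr4:125490446-125490695, plus strand): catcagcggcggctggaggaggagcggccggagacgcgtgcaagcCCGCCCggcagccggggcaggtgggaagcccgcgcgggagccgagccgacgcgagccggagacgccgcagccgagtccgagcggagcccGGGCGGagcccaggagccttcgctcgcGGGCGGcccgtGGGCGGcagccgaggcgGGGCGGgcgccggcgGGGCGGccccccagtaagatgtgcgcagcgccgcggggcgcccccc
Ptprm (chr17:67354460-67354709, minus strand): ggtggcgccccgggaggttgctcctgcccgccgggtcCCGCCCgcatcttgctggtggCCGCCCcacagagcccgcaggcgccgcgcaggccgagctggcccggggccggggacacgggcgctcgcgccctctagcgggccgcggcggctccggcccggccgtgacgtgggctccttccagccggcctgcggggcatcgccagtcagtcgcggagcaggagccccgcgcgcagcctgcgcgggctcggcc
Gpr6 had 1 match to the cyclic AMP response element, 78 bases before the start, which 1.55% of 32851 mouse promoters of the same length also hold, and no GC box match. GC box matches numbered 2 in Drd2, 6 in Grik3 and 2 in Ptprm, and 32.7% of all promoters had at least 1. The motif TATAAA, present in 12.4% of promoters, matched none of the 6. Of the members whose sequences are not printed, Sp9 had 1 GC box match and Upb1 had 0. Base composition differed too, with 58.4% G and C in Gpr6, 68.8% in Drd2, 81.2% in Ptprm and 82.0% in Grik3. A match of letters describes the window and is no measurement of binding.

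Drd2 and Adora2a were also set against Drd1, the D1 receptor gene of the direct pathway, within each library, and 0 of 6 ratio comparisons passed the threshold. The log2 ratio of Drd2 to Drd1 counts averaged 0.01 ± 0.18 in the 7 WT libraries (SD), 0.01 ± 0.09 in the 4 E1 libraries and 0.26 ± 0.28 in the 4 KI-96 libraries. In KI-96 the 4 ratios were 0.03, 0.57, 0.00 and 0.42, so 2 libraries lay above the whole WT range (-0.17 to 0.36) and 2 inside it. In KI-96 replicate 2 Drd2 was at 358 CPM and Drd1 at 241 CPM. KI-96 replicate 4 had Drd2 at 216 CPM and the lowest Drd1 of all libraries, 162 CPM. The difference was -0.01 for E1 against WT (exact permutation test, two-sided, p = 0.945, adjusted over 6 ratio comparisons 0.945). For KI-96 it was 0.24 against WT (exact permutation p = 0.121, adjusted 0.364) and 0.25 against E1 (exact permutation p = 0.257, adjusted 0.429). Leaving out 1 library, the difference from WT ran from 0.14 (without KI-96 replicate 2) to 0.33 (without KI-96 replicate 3), and that from E1 from 0.15 to 0.34 (without the same libraries).

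The log2 ratio of Adora2a to Drd1 averaged 0.65 ± 0.19 for WT (SD, n = 7), 0.43 ± 0.14 for E1 (n = 4) and 0.67 ± 0.37 for KI-96 (n = 4). The E1 ratios were 0.45, 0.43, 0.25 and 0.59, and WT ran from 0.45 to 1.04, so the groups overlapped. The difference of E1 from WT was -0.22 (exact permutation test, two-sided, p = 0.0545, adjusted 0.327), and without the 3 libraries rich in cortical markers the difference was -0.07. KI-96 differed from WT by 0.02 (exact permutation p = 0.912, adjusted 0.945) and from E1 by 0.24 (exact permutation p = 0.286, adjusted 0.429). The latter ran from 0.13 without KI-96 replicate 2 to 0.39 without KI-96 replicate 3. The smallest p that the exact test can give is 0.00303 with 4 against 7 libraries and 0.0286 with 4 against 4. After adjustment over the 6 ratio comparisons, a lone exact permutation p of 0.0286 stays above 0.05. Neither ratio comparison of KI-96 with E1 could therefore have passed by itself.

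**Figure D5:**
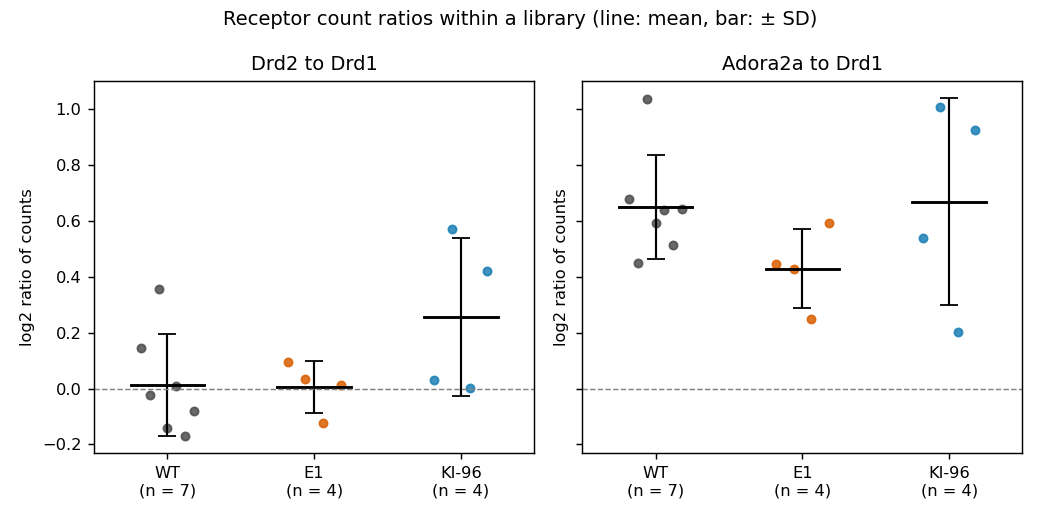
Log2 ratio of the Drd2 (left) or Adora2a (right) count to the Drd1 count in the same library (y axis) by genotype (x axis), 1 point per library, with the group mean as a line and the SD as a bar; the dashed line marks equal counts. The KI-96 points spread widest (0.00 to 0.57 for Drd2 and 0.20 to 1.01 for Adora2a), and each group overlaps the others.

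Genes that act with the members gave the same count of calls. Of 34 genes of D2 and A2A receptor signalling, edgeR called 0 in each comparison, with 23 positive and 11 negative for E1 against WT (median log2 fold change 0.03), 19 and 15 for KI-96 against WT (0.02) and 15 and 19 for KI-96 against E1 (-0.01). Over all genes 49.7%, 47.9% and 49.4% were positive, with medians of -0.00, -0.01 and -0.00 in the same order. The smallest p for E1 against WT in this list belonged to Nt5e, the enzyme that makes adenosine outside the cell, with a log2 fold change of -0.48 (SE 0.15, edgeR adjusted p = 0.448). For KI-96 against WT it belonged to Pde2a, a cyclic nucleotide phosphodiesterase, with 0.55 (SE 0.20, edgeR adjusted p = 0.365), and Gnal, the G protein of the A2A receptor, had 0.30 (SE 0.14, edgeR adjusted p = 0.469). For KI-96 against E1 it belonged to Arpp21, with -0.52 (SE 0.18, edgeR adjusted p = 0.255).

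Of 4 other genes linked to the indirect class or neighbouring its receptors in function or position (Penk, Six3, Ttc12 and Adk), 0 were called in any comparison. Penk, the enkephalin precursor, ran from 712 to 1170 CPM in WT (lowest and highest). Its level was 1307, 844, 983 and 918 CPM in E1 and 822, 995, 338 and 637 CPM in KI-96, with KI-96 replicate 3 the lowest of all 15, as it was for Adora2a and Gpr6. Penk had log2 fold changes of 0.16 (SE 0.22, edgeR adjusted p = 0.840) for E1 against WT and -0.38 (SE 0.22, edgeR adjusted p = 0.565) for KI-96 against WT. For KI-96 against E1 it was -0.54 (SE 0.25, 95% interval -1.07 to -0.01, edgeR adjusted p = 0.342). Of 8 direct pathway markers, 0 were called as well, with 5, 4 and 3 positive in the 3 comparisons. The 5 kainate receptor subunits had 0 calls, and Grik3 had the highest fold change of them in both comparisons with WT.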

How the data were processed

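Striatal RNA was prepared with a kit for lipid-rich tissue and a provider built the libraries, per the labels. The authors deposited raw counts of reads per gene, without normalization, and the submitters' processing notes name STAR, HTSeq, DESeq2 1.24.0 and the build GRCm38, with no role stated. Of 54232 versioned Ensembl identifiers, 54165 matched a GRCm38 annotation without their version, which gave symbols, coordinates and exon lengths. The sources used here give neither strandedness nor read length.

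From the counts, edgeR 4.0.16 in R 4.3.3 kept 18278 genes (minimum count 10, by group), scaled them by the trimmed mean of M-values and fitted a robust quasi-likelihood model to all 15 libraries with genotype as the factor. Tests were two-sided with Benjamini-Hochberg adjustment over all genes kept and a threshold of 0.05. CPM used the scaled library sizes, and log2 CPM a prior count of 2. Ratios used counts plus 0.5. The totals of 14678565 to 26388542 counts gave at least 507 counts per library for every measured member other than Upb1. Groups and replicate numbers came from the titles, and each library has its own mouse number.

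Alternatives were relative log expression scaling, no filter, DESeq2 1.42.0, limma-voom (limma 3.58.1), the 2 groups alone, a replicate block, leaving out each library, and leaving out the 3 libraries rich in cortical markers. Scripts were tested on simulated data. The members, the gene lists and the tests were chosen with earlier results of these data known. All members were named, with 7 anchor genes (Penk, Drd1, Tac1, Ppp1r1b, Slc17a7, Chat and Cldn5), up to 3 genes with the smallest p from each list, and the 5 genes most like each member by Pearson r of group-centred log2 CPM, a few of which are not reported here. Htt, Ptprt and the midbrain genes were chosen after their values were seen.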

Additional observations from a re-analysis of the deposited data

Results flagged for a closer look

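In 27 sets of 4 or 7 libraries of 1 genotype (the levels of the 7 markers and the 2 receptor ratios), 2 had a library far from the others by Dixon's gap test at the 95% level, and chance alone flags about 1 in 20 such sets. Upb1 was at 6.00 CPM in E1 replicate 1, and the other 3 E1 libraries lay between 3.72 and 3.93 CPM. The log2 ratio of Adora2a to Drd1 was 1.04 in WT replicate 3, and the other 6 WT libraries lay between 0.45 and 0.68. WT replicate 3 was the WT library with the cortical marker sum of 1110 CPM.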

How the results depend on the processing

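Over the alternatives named above, 0 of the 7 markers were called in any comparison, and 0 of 564 recomputed values changed their side of the threshold, while 30 changed sign. The ratio tests of KI-96 against E1, and some of those with fewer libraries, could not have passed by themselves, because the exact test has a smallest possible p. Without the 3 libraries rich in cortical markers, E1 against WT gave 0.086 for Adora2a, 0.047 for Sp9, -0.11 for Grik3 and 0.099 for the Drd2 to Drd1 ratio, each with the opposite sign. Leaving out 1 library at a time, the log2 fold change for E1 against WT ran from -0.061 to 0.18 for Drd2, from -0.18 to 0.027 for Sp9 and from -0.15 to 0.12 for Upb1. For KI-96 against WT it ran from -0.096 to 0.18 for Drd2, from -0.30 to 0.034 for Adora2a, from -0.33 to 0.017 for Gpr6 and from -0.041 to 0.14 for Sp9. For KI-96 against E1 it ran from -0.21 to 0.15 for Drd2, from -0.21 to 0.13 for Adora2a and from -0.030 to 0.16 for Grik3. The ratio difference ran from -0.039 to 0.049 for Drd2 to Drd1 in E1 against WT and from -0.093 to 0.17 for Adora2a to Drd1 in KI-96 against WT. The cause of these sign changes was not tested.

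The replicate numbers were not taken to pair the mice: 12 pairs with the same number had correlations of deviations from -0.24 to 0.34 (median 0.04), and 4 of the 12 exceeded 0.1, beside 4 of 36 pairs with different numbers (median -0.03). With the replicate block, 0 markers were called and Drd2 in KI-96 against WT had -0.031.

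Counts of genes called over the whole table depended on the tool and the libraries: DESeq2 called 56, 67 and 200 genes for E1 against WT, KI-96 against WT and KI-96 against E1, limma-voom called 2, 1 and 0, and the block fit 4, 6 and 0. Without filtering edgeR called 0, 1 and 3. With 1 library left out edgeR called up to 257 for E1 against WT and 190.0 for KI-96 against E1 (both without E1 replicate 4), and up to 11 for KI-96 against WT (without WT replicate 1). Depth limits Upb1 most, at 49 to 144 counts.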
